A study of Mus musculus with 18 samples.

Results

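The 38 genes described here encode proteins that copy nuclear DNA and S-phase repair factors that work beside them. They were chosen by symbol for their roles in replication licensing, DNA synthesis, nucleotide supply and repair, and all 38 were found among the 34896 genes of the deposited expression table. RNA-seq compared 3 populations sorted from the bone marrow of adult wild type C57BL/6 mice of 6 to 12 weeks, with 3 libraries each. These are granulocyte-monocyte progenitors (GMP, sorted as lineage-negative cells with cKIT and CD34), pre-neutrophils (preNeu) and mature neutrophils (matNeu), the last 2 sorted from cells with Gr-1 and MAC-1 by cKIT, CXCR4, SIGLECF and CXCR2. ChIP-seq peak lists from mice of the same strain and age, with 1 library each, gave CHD4 in GMP of wild type mice and of mice of genotype Gfi1-/- (titled Gfi1KO, without the transcription factor GFI1), and the histone mark H3K4me2 in wild type GMP, preNeu and matNeu. ATAC-seq, which marks accessible DNA, was deposited for wild type preNeu and matNeu as 2 identical lists, counted here as 1.

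In G1 phase the origin recognition complex, CDC6 and CDT1 load the MCM helicase onto replication origins, and geminin blocks further loading once S phase has begun. The helicase then unwinds DNA with CDC45 and the GINS complex, while polymerases, the sliding clamp and its loader, RPA and the Okazaki fragment enzymes build new strands from deoxynucleotides. Pre-neutrophils still divide, mature neutrophils have left the cell cycle, and many of these genes are known targets of E2F transcription factors.

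Groups follow the sample titles, because the cell type field of the labels differs from the title in 13 of the 18 samples. Marker genes of the 3 populations went with the titles in all 9 RNA libraries. The progenitor gene Cd34 stood at 498, 486 and 425 TPM, the relative unit of the deposited table, in libraries titled GMP and at 3.27 TPM or lower in the other 6. Ngp, a granule gene, lay between 57803 and 82697 TPM in preNeu and at 3245 TPM or lower elsewhere. Cxcr2 stood at 3027, 3400.4 and 3976 TPM in matNeu and at 93.4 TPM or lower elsewhere. Over the 13061 genes tested, log2 levels of replicates correlated with Pearson's r from 0.961 to 0.971, a value across genes, which are not independent replicates. Nothing in the labels says that replicates are separate animals, so each p-value measures spread between these libraries. Spread of a gene was estimated over all 9 libraries, so p-values between GMP and preNeu also carry the spread within matNeu.

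The summed level of the 38 genes was 8677, 8606 and 8032 TPM in GMP, 4762, 5049 and 5020.1 TPM in preNeu and 367, 486 and 399 TPM in matNeu. The 3 populations did not overlap in this sum, which was lower at each later stage. The median member stood at 163 to 176 TPM in a GMP library, 84.8 to 90.9 TPM in preNeu and 2.67 to 3.60 TPM in matNeu. All 38 genes passed the expression filter (at least 1 TPM in at least 3 of the 9 libraries), and each was above 1 TPM in all GMP and preNeu libraries. Mcm6 was the most abundant member in the 3 GMP libraries, Rrm2 in preNeu and Rfc2 in matNeu. These are bulk samples, so fewer cells in S phase and less RNA per cell cannot be told apart.

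Both GMP and preNeu are dividing populations. Most members stood lower in preNeu than in GMP, and most dropped further at the later step, while Rrm2 stood higher in preNeu. Orc1 showed the largest fall between GMP and preNeu. Between GMP and preNeu, limma on log2(TPM + 1) with Benjamini-Hochberg adjustment called 26 of the 38 members lower at an adjusted p under 0.05, where 44.3% of all genes tested were called lower. It called 0 members higher, against 14.7% of all genes, with 0 at an unadjusted p under 0.05 as well. The other 12 members had no call. The median log2 change of all 38 was -0.93, against -0.52 for all genes, a difference of -0.41. Levels of the 2 populations did not overlap for 33 members, against 65.5% of all genes. As a share of its GMP mean, the median member stood at 52.4% in preNeu. The median was 60.5% for the 11909 genes with a mean of at least 1 TPM in GMP.

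**Figure D1:**
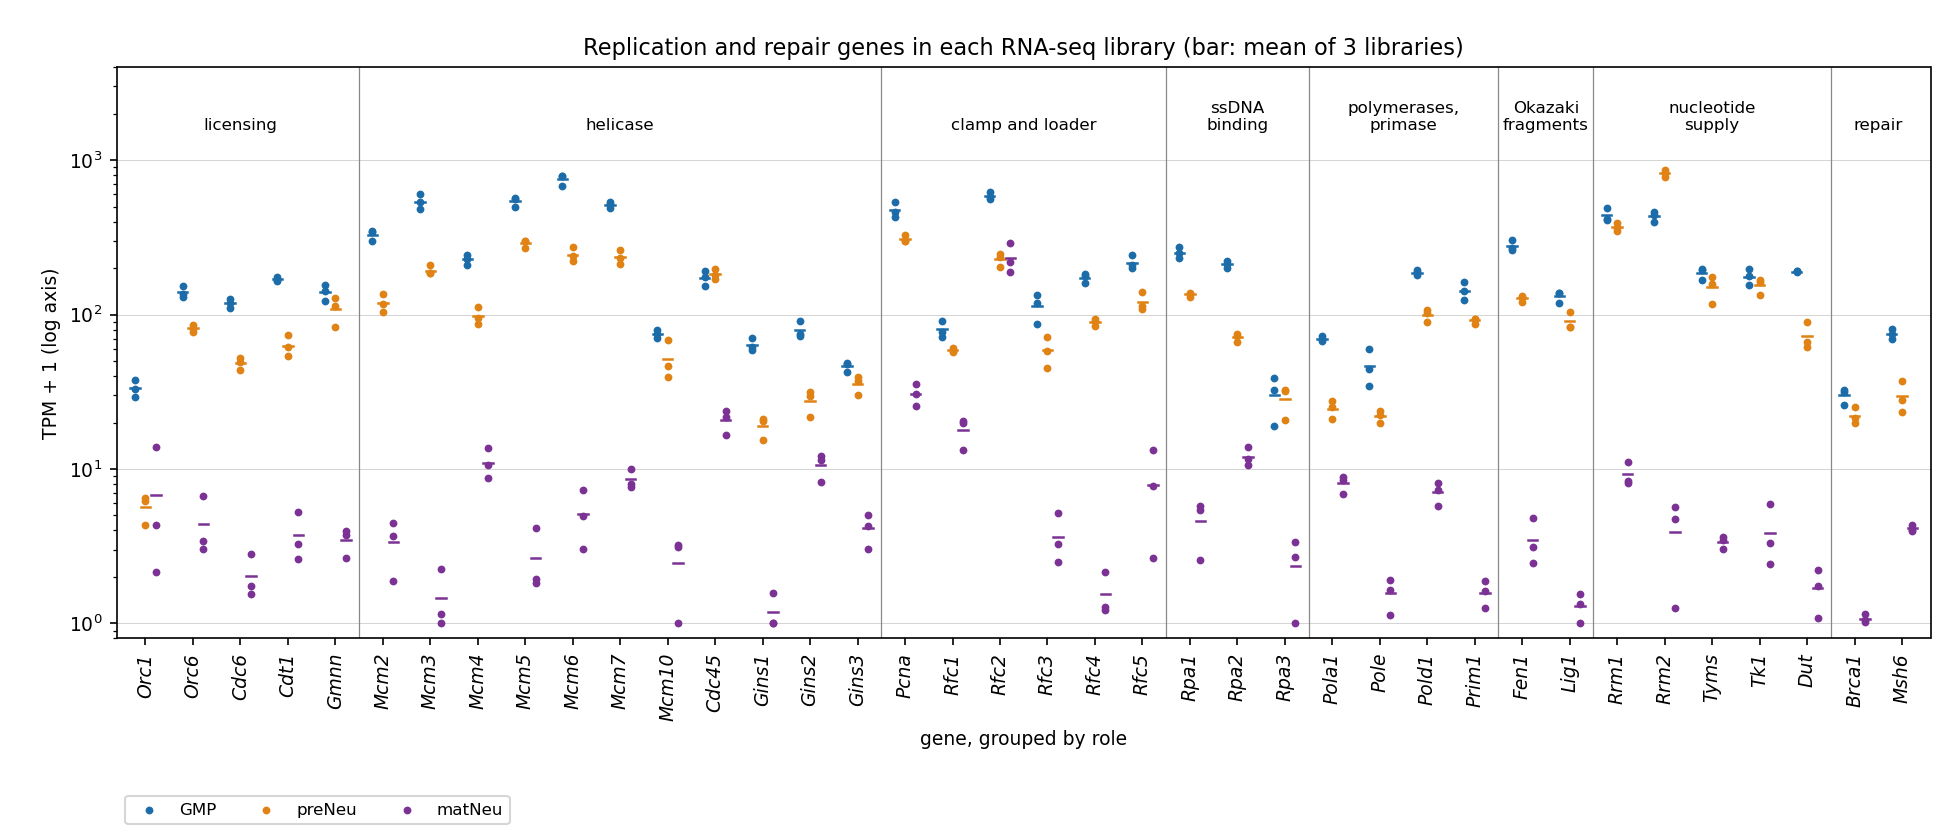
Levels of the 38 genes, by role, as TPM + 1 on a log axis, with 1 point per RNA-seq library of GMP, preNeu and matNeu and a bar for the mean of 3 libraries. The matNeu points lie below the GMP points for all 38 genes, Rfc2 stays between 187 and 290.0 TPM in matNeu, and Rrm2 is highest in preNeu.

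Division ends between preNeu and matNeu. The paper places immature neutrophils between them, a stage without a library here, so where in between the members fell cannot be told. Most members dropped to a few TPM in matNeu, and Rfc2 kept the highest level. By limma with Benjamini-Hochberg, 36 members were lower in matNeu than in preNeu (39.8% of all genes) and 0 were higher (22.9% of all genes), with 0 higher at an unadjusted p under 0.05. Orc1 and Rfc2 were the 2 members without a call. The median log2 change was -4.33, against -0.32 for all genes, a difference of -4.01, and levels did not overlap for 36 members, against 66.6% of all genes. Between GMP and matNeu all 38 members were lower (54.1% of all genes) and 0 were higher by limma (22.8% of all genes), with 0 higher at an unadjusted p under 0.05. The median change was -5.23, against -0.92 for all genes, a difference of -4.31, and levels did not overlap for all 38 members, against 78.6% of all genes. The 3 comparisons share libraries. In matNeu the median member stood at 1.70% of its GMP mean, and 29 of the 38 were under 5%, as were 17.7% of the 11909 genes with a mean of at least 1 TPM in GMP.

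How libraries were made comparable bore on the first step. The top 10 genes of a library took 9.15 to 9.78% of its TPM in GMP, 24.1 to 28.3% in preNeu and 12.7 to 15.9% in matNeu. Median ratio scaling moved the median log2 change of all genes from -0.52 to -0.16 between GMP and preNeu, from -0.32 to -0.045 between preNeu and matNeu, and from -0.92 to -0.25 between GMP and matNeu. Rescaling without the 100 most abundant genes moved them to -0.19, -0.50 and -0.78. Genes called lower and higher in preNeu went from 5781 and 1925 to 3999 and 2810 under the median ratio, and to 4066 and 2819 without those 100 genes. For the members the counts went from 26 and 0 to 17 and 2 under either scaling, with Cdc45 and Rrm2 the 2 called higher. With a pseudocount of 0.1 in place of 1, 18 members and 5333 of all 13061 genes were called lower in preNeu. Orc6, Mcm3, Mcm5, Rfc4, Pole, Prim1, Lig1 and Dut lost the call there. Their changes stayed near those with 1, such as -0.55 against -0.54 for Lig1 and -1.07 against -1.04 for Pole. Leaving out 1 library at a time gave 22 (without GMP replicate 1) to 28 (without matNeu replicate 3) lower members, and 1 higher member, Rrm2, without matNeu replicate 1. The 38 lower calls between GMP and matNeu held under both scalings and without each library. For each role, medians below are given relative to the median of all genes.

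Genes used as markers of other marrow cells also differed between the populations. Sorted cells can express some of them, as the paper states for Csf1r in GMP. All 6 markers of mast cells, basophils and eosinophils were lower in matNeu than in GMP, while 3 were lower and 0 higher in preNeu than in GMP. Their sum was 1449, 1461 and 1258 TPM in GMP, 497, 309 and 391 TPM in preNeu and 1.34, 12.9 and 4.58 TPM in matNeu. Prg2 was the most abundant of them in GMP, at 759 TPM on average, and Epx was listed at 0 in the 3 matNeu libraries. Of the 8 monocyte and macrophage markers, 5 were lower and 2 higher in preNeu than in GMP, and 4 lower and 3 higher in matNeu than in GMP. They summed to 1134, 957 and 956 TPM in GMP, 94.1, 106 and 122 TPM in preNeu and 403, 356 and 490.4 TPM in matNeu. Irf8 was their most abundant gene in GMP, at 513 TPM, and Csf1r in matNeu, at 304 TPM. None of the 8 was at 0 throughout a group. Both sums were highest in GMP, as was the sum of the members. Whether these levels came from other cells or from the sorted cells was not tested, nor was any part of other cells in the members' changes.

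The 8 B lineage markers summed to 96.1, 81.7 and 90.4 TPM in GMP, 29.1, 50.5 and 48.9 TPM in preNeu and 63.1, 78.0 and 138 TPM in matNeu, with 5 of 7 tested higher and 2 lower in matNeu than in GMP. Cd79b was the most abundant at each stage, and Pax5 and Ebf1 were listed at 0 in all GMP libraries. The 7 T and NK cell markers summed to 469, 554 and 618 TPM in GMP, 253, 231 and 219 TPM in preNeu and 16.1, 20.3 and 15.7 TPM in matNeu, nearly all of it Nkg7 in GMP and preNeu, with Cd3e and Gzma at 0 in GMP, and 2 of 3 tested were lower and 1 higher in matNeu than in GMP. The 5 megakaryocyte markers summed to 35.4, 50.5 and 49.2 TPM in GMP, 5.96, 10.002 and 8.41 TPM in preNeu and 8.29, 7.40 and 5.53 TPM in matNeu, with Itga2b the most abundant in GMP, none at 0 in all 3 GMP libraries, and 2 of 4 tested lower in matNeu than in GMP. The 9 erythroid markers summed to between 7.95 and 36.2 TPM in each library, with Gata1 the most abundant in GMP, Hba-a1 and Hbb-bt at 0 there, and 3 lower and 2 higher of 7 tested in matNeu. Sums of T and NK and of megakaryocyte markers were highest in GMP, while B lineage and erythroid sums overlapped between GMP and matNeu. Their part was not tested. Among matNeu libraries, replicate 2 held both the highest sum of the 7 GMP markers, 33.6 TPM against 9.99 and 10.9 TPM, and the highest sum of the members. Rfc2 averaged 232 TPM of a mean member sum of 417 TPM in matNeu. It was also highest in replicate 2, at 290.0 TPM against 187 and 218 TPM. A link between the GMP markers and the member sum was not tested.

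Licensing of origins was represented by Orc1 and Orc6, which encode subunits of the origin recognition complex, the loading factors Cdc6 and Cdt1, and Gmnn, which encodes geminin. Of these 5 genes, 4 were lower in preNeu than in GMP (44.3% of all genes) and 4 lower in matNeu than in preNeu (39.8%). Between GMP and matNeu 5 were lower (54.1%), and medians relative to all genes were -0.78, -3.98 and -4.43 for the 3 comparisons. Cdc6 stood at 109, 126 and 118 TPM in GMP, 42.6, 48.5 and 51.4 TPM in preNeu and 0.544, 1.801 and 0.745 TPM in matNeu. Its levels were lower at each later stage, with no overlap. Cdc6 fell by 5.92 on the log2 scale from GMP to matNeu (SE 0.23, adjusted p = 2.62e-09 by limma with Benjamini-Hochberg).

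Orc1 stood at 36.6, 28.4 and 32.0 TPM in GMP, 5.46, 3.36 and 5.18 TPM in preNeu and 3.35, 12.9 and 1.14 TPM in matNeu. The preNeu libraries were already far below GMP, and the matNeu libraries lay on both sides of preNeu, with replicate 2 the highest. Orc1 fell by 2.57 from GMP to preNeu (SE 0.54, adjusted p = 0.00197 by limma with Benjamini-Hochberg) and by 2.71 from GMP to matNeu (SE 0.54, adjusted p = 0.000813 by limma with Benjamini-Hochberg). Its change from preNeu to matNeu was -0.14, 0.17 under median ratio scaling and 0.48 without matNeu replicate 3, with adjusted p from limma with Benjamini-Hochberg of 0.0524 to 0.972 over the alternatives. Gmnn kept 107 ± 22.3 TPM (SD, n = 3) in preNeu against 139.5 ± 16.98 TPM in GMP, with overlapping levels, and had 2.47 ± 0.699 TPM in matNeu. Its change of -0.39 between GMP and preNeu had no call and was 0.033 under median ratio scaling and 0.021 without the 100 most abundant genes. Cdt1 averaged 168, 62.0 and 2.72 TPM at the 3 stages and Orc6 139, 80.4 and 3.39 TPM. Cdt1 shares 5540 bp with Gm20388 on the same strand, a gene at 18.0 to 30.3 TPM in GMP and preNeu and 0.972 to 2.60 TPM in matNeu, and the part of this overlap was not tested. The lower call of Orc6 in preNeu (adjusted p = 0.0239 by limma with Benjamini-Hochberg) was lost without GMP replicate 1 (0.0711), preNeu replicate 2 (0.0591) or preNeu replicate 3 (0.0656), with a pseudocount of 0.1 (0.0596), without the filter (0.0501) and under both scalings, in a range of 0.000488 to 0.309 over the alternatives.

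The helicase group held Mcm2 to Mcm7, for the 6 subunits of the ring that unwinds DNA, Cdc45 and Gins1, Gins2 and Gins3, for its activating partners, and Mcm10, for a factor of origin firing. Of these 11 genes, 8 were lower in preNeu than in GMP (44.3% of all genes). In matNeu 11 were lower than in preNeu (39.8%) and 11 lower than in GMP (54.1%), with medians relative to all genes of -0.70, -4.22 and -4.85. The ring subunits averaged 227 TPM (Mcm4) to 752 TPM (Mcm6) in GMP, 97.3 TPM (Mcm4) to 288 TPM (Mcm5) in preNeu and 0.469 TPM (Mcm3) to 10.001 TPM (Mcm4) in matNeu. Mcm4 was thus the least abundant ring subunit in GMP and preNeu and the most abundant in matNeu. The call of Mcm5 in preNeu (change -0.91, adjusted p = 0.0132 by limma with Benjamini-Hochberg) was lost under both scalings (-0.48 and -0.49) and with a pseudocount of 0.1 (0.0754), in a range of 8.92e-05 to 0.182.

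Mcm3 showed the largest change of the 38 members between GMP and matNeu. It stood at 532, 604 and 480.2 TPM in GMP, 184, 207 and 185 TPM in preNeu and 0.150 and 1.26 TPM in matNeu replicates 1 and 3, with replicate 2 listed at 0. Each population was apart from the others. Mcm3 fell by 8.61 on the log2 scale (SE 0.26, adjusted p = 6.58e-10 by limma with Benjamini-Hochberg), a value that depends on the pseudocount. Its first-step change was -1.48 with either pseudocount. With 0.1 the first-step call was lost (adjusted p = 0.111 by limma with Benjamini-Hochberg, range 1.14e-05 to 0.111). Gins2, for a GINS subunit, had the smallest change of its group, with 74.1, 72.0 and 89.8 TPM in GMP, 28.7, 30.4 and 20.6 TPM in preNeu and 11.1, 7.27 and 10.4 TPM in matNeu. These levels were lower at each stage without overlap, and 12.2% of the GMP mean was left in matNeu. Gins2 fell by 2.92 (SE 0.21, adjusted p = 2.88e-07 by limma with Benjamini-Hochberg). On the opposite strand it shares 10672 bp with Gm20388, at 0.972 to 2.60 TPM in matNeu, and 2758 bp with Gse1, at 7.26 to 11.8 TPM there, and the part of these overlaps was not tested.

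Cdc45, Gins3 and Mcm10 had no call between GMP and preNeu. Cdc45 stood at 175, 191 and 153 TPM in GMP, 170.0, 179 and 197 TPM in preNeu and 20.9, 22.7 and 15.7 TPM in matNeu. GMP and preNeu overlapped, and matNeu was apart. Its first change of 0.078 was -0.0081 without GMP replicate 3, 0.50 under median ratio scaling (adjusted p = 0.025 by limma with Benjamini-Hochberg) and 0.49 without the 100 most abundant genes (0.024), in a range of 0.024 to 0.978. From preNeu to matNeu Cdc45 fell by 3.15 (SE 0.16, adjusted p = 3.74e-08 by limma with Benjamini-Hochberg). Gins1, for another GINS subunit, already had 17.9 ± 3.15 TPM (SD, n = 3) in preNeu against 62.9 ± 6.01 TPM in GMP, and was listed at 0 in matNeu replicates 1 and 3. Gins3 averaged 45.5, 34.4 and 3.13 TPM at the 3 stages, with a first change of -0.40 that was 0.017 under median ratio scaling and 0.0049 without the 100 most abundant genes. Mcm10 averaged 74.0, 50.5 and 1.46 TPM, and its first change of -0.58 had a call without matNeu replicate 1 (adjusted p = 0.0376 by limma with Benjamini-Hochberg, range 0.0335 to 0.806), the library where Mcm10 was listed at 0, and in a fit of the 2 groups alone (0.0335).

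PCNA, the sliding clamp, holds polymerases on DNA, and replication factor C, encoded by Rfc1 to Rfc5, loads it. Of these 6 genes, 4 were lower in preNeu than in GMP (44.3% of all genes) and 5 lower in matNeu than in preNeu (39.8%). Between GMP and matNeu 6 were lower (54.1%), and medians relative to all genes were -0.38, -3.38 and -3.57. Rfc4 stood at 177, 159.6 and 181 TPM in GMP, 89.97, 84.0 and 93.1 TPM in preNeu and 0.287, 1.15 and 0.221 TPM in matNeu. The populations were widely apart. Rfc4 fell by 6.85 on the log2 scale between GMP and matNeu (SE 0.22, adjusted p = 8.17e-10 by limma with Benjamini-Hochberg). Pcna stood at 536, 429.7 and 463 TPM in GMP, 297, 328 and 297 TPM in preNeu and 34.5, 24.5 and 29.6 TPM in matNeu, the second highest matNeu mean of the members after Rfc2.

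Rfc2 stood at 618, 557 and 577 TPM in GMP, 203, 237 and 246 TPM in preNeu and 187, 290.0 and 218 TPM in matNeu. PreNeu and matNeu overlapped, and both lay below GMP. Rfc2 fell by 1.35 from GMP to preNeu (SE 0.16, adjusted p = 3.61e-05 by limma with Benjamini-Hochberg) and by 1.35 from GMP to matNeu (SE 0.16, adjusted p = 1.23e-05 by limma with Benjamini-Hochberg). Its change from preNeu to matNeu was 0.0022, with a higher call under median ratio scaling (0.40, adjusted p = 0.0491 by limma with Benjamini-Hochberg, range 0.0491 to 1). The sign of that change was negative without the 100 most abundant genes (-0.19), without preNeu replicate 1 (-0.080) and without matNeu replicate 2 (-0.17). Rfc2 shares 1784 bp with Lat2 on the opposite strand, a gene at 105 to 142 TPM in GMP and 3.04 to 15.5 TPM in the other libraries, and the part of this overlap in its level was not tested. In all, 15 of the 38 members overlap another annotated gene.

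Rfc1, for the large subunit, averaged 79.2, 57.8 and 16.8 TPM, Rfc3 113, 57.6 and 2.65 TPM and Rfc5 216, 120.0 and 6.90 TPM. All 3 were lower in matNeu than in preNeu, by 1.75, 4.05 and 4.21 on a log2 scale. The first-step calls of Pcna, Rfc3 and Rfc4 were lost under both scalings, with changes of -0.20, -0.53 and -0.52 under the median ratio. Rfc4 also lost it with a pseudocount of 0.1 (adjusted p = 0.0855 by limma with Benjamini-Hochberg, range 0.000113 to 0.11). Rfc3 also lost it without GMP replicate 1 (adjusted p = 0.057 by limma with Benjamini-Hochberg) or preNeu replicate 3 (0.0625), in a range of 0.00418 to 0.181. Rfc1 and Rfc5 had no call at the first step. A lower call appeared for Rfc5 without matNeu replicate 2 (adjusted p = 0.00521 by limma with Benjamini-Hochberg) or 3 (0.0438), in a range of 0.000715 to 0.482, and for Rfc1 without matNeu replicate 3 (0.0198), in a range of 0.0198 to 0.957. Both also had a call in a fit of the 2 groups alone, at 0.000715 and 0.0202.

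RPA, encoded by Rpa1, Rpa2 and Rpa3, covers single-stranded DNA. Of the 3 genes, 2 were lower in preNeu than in GMP (44.3% of all genes). In matNeu all 3 were lower than in preNeu (39.8%) and than in GMP (54.1%), with medians relative to all genes of -0.38, -3.42 and -3.23. Rpa1 stood at 250.2, 272 and 230.0 TPM in GMP, 129, 137 and 136 TPM in preNeu and 1.58, 4.77 and 4.41 TPM in matNeu. Each stage lay below the stage before it. Rpa1 fell by 5.86 between GMP and matNeu (SE 0.26, adjusted p = 7.57e-09 by limma with Benjamini-Hochberg), while its first-step call was lost under both scalings (-0.47 and -0.48). Rpa3 stood at 18.1, 31.5 and 37.9 TPM in GMP, 31.4, 19.8 and 31.0 TPM in preNeu and 2.35 and 1.71 TPM in matNeu replicates 1 and 2, with replicate 3 listed at 0. Its GMP and preNeu levels were intermixed. Rpa3 fell by 3.79 between GMP and matNeu (SE 0.45, adjusted p = 1.43e-05 by limma with Benjamini-Hochberg). Its first change of -0.056 was positive under median ratio scaling (0.36), without the 100 most abundant genes (0.35), and without GMP replicate 2 (0.029), GMP replicate 3 (0.16) or preNeu replicate 2 (0.15). Rpa2 averaged 211, 70.2 and 10.98 TPM.

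Pola1 and Prim1 encode the polymerase and primase subunits that start new strands, and Pole and Pold1 the catalytic subunits of the polymerases that extend them. All 4 were lower in preNeu than in GMP (44.3% of all genes). In matNeu all 4 were lower than in preNeu (39.8%) and than in GMP (54.1%), with medians relative to all genes of -0.45, -3.51 and -3.88. Prim1 stood at 162, 124 and 140.3 TPM in GMP, 92.8, 85.7 and 93.2 TPM in preNeu and 0.882, 0.623 and 0.251 TPM in matNeu. Pola1 stood at 68.1, 71.8 and 66.2 TPM in GMP, 20.0, 26.4 and 24.3 TPM in preNeu and 7.46, 7.85 and 5.87 TPM in matNeu. Neither gene had overlapping populations, and the mean of Pola1 was at 34.3% of GMP in preNeu and that of Prim1 at 63.8%. From GMP to matNeu, Prim1 fell by 6.51 (SE 0.19, adjusted p = 5.45e-10 by limma with Benjamini-Hochberg). Pola1 fell by 3.12 (SE 0.18, adjusted p = 4.36e-08 by limma with Benjamini-Hochberg). Pold1 averaged 186, 98.9 and 6.08 TPM and Pole 45.2, 20.9 and 0.568 TPM. The first-step call of Prim1 was lost without GMP replicate 1 (adjusted p = 0.0695 by limma with Benjamini-Hochberg) or preNeu replicate 2 (0.0532), in a range of 0.00267 to 0.436, and those of Prim1 and Pole were lost under both scalings and with a pseudocount of 0.1 (adjusted p = 0.13 and 0.101 by limma with Benjamini-Hochberg, range 0.00296 to 0.101 for Pole).

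Fen1, for the flap nuclease, and Lig1, for the ligase, act in the joining of Okazaki fragments. Both were lower at each step (44.3% and 39.8% of all genes) and in matNeu than in GMP (54.1%). Medians relative to all genes were -0.31, -5.38 and -5.61. Lig1 stood at 137, 137 and 118 TPM in GMP, 82.5, 82.6 and 103 TPM in preNeu and 0.342 and 0.554 TPM in matNeu replicates 2 and 3, with replicate 1 listed at 0. Fen1 stood at 270.4, 305 and 261 TPM in GMP, 129.7, 120.0 and 131 TPM in preNeu and 2.14, 3.85 and 1.45 TPM in matNeu. Populations of both genes were apart, and both means in matNeu were under 1% of GMP. Lig1 fell by 6.68 between GMP and matNeu (SE 0.20, adjusted p = 6.48e-10 by limma with Benjamini-Hochberg). Fen1 fell by 6.38 (SE 0.22, adjusted p = 1.29e-09 by limma with Benjamini-Hochberg). The first fall of Lig1, by 0.54 (adjusted p = 0.0391 by limma with Benjamini-Hochberg), was near the median of all genes. Its call was lost without GMP replicate 1 (0.112), 2 (0.114) or 3 (0.0563), without preNeu replicate 1 (0.114) or 2 (0.118), with a pseudocount of 0.1 (0.438), without the filter (0.0504) and under both scalings, with adjusted p from limma with Benjamini-Hochberg of 0.00768 to 0.68.

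Nucleotide supply genes differed among themselves in preNeu. Rrm1 and Rrm2 encode subunits of ribonucleotide reductase, which makes deoxynucleotides, Tyms thymidylate synthase, Tk1 a thymidine kinase and Dut the dUTPase that keeps uracil out of DNA. The sum of these 5 genes was 1436, 1458 and 1366 TPM in GMP, 1549.9, 1614 and 1531 TPM in preNeu and 12.4, 23.0 and 15.8 TPM in matNeu. It was higher in each preNeu library than in each GMP library, and lowest in matNeu. Rrm2 alone had a higher mean in preNeu than in GMP, and the other 4 genes summed to 995, 998 and 969.8 TPM in GMP and 771, 748 and 706 TPM in preNeu, lower in each preNeu library than in each GMP library. Dut alone of the 5 was called lower in preNeu, with a change of -1.41. With a pseudocount of 0.1 the change was -1.42 and the call was lost (adjusted p = 0.0675 by limma with Benjamini-Hochberg, range 6.64e-05 to 0.0675). Of 10 other deoxynucleotide and thymidylate enzymes, 7 were lower and 2 higher in preNeu than in GMP, beside 44.3% and 14.7% of all genes tested. Between GMP and matNeu, 5 of the 10 were lower and 4 higher, beside 54.1% and 22.8%. For the members, all 5 were lower in matNeu than in preNeu (39.8% of all genes) and than in GMP (54.1%). Medians relative to all genes were 0.27, -5.14 and -4.86.

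Rrm2 stood at 441, 461 and 396 TPM in GMP, 779, 866 and 824 TPM in preNeu and 0.266, 4.65 and 3.74 TPM in matNeu. Each preNeu library was above each GMP library, and the preNeu mean was 190.2% of the GMP mean. The log2 change of 0.93 (SE 0.44, relative to all genes 1.45) had an adjusted p of 0.0919 by limma with Benjamini-Hochberg, and so no call. Over the alternatives the change ran from 0.86 to 1.36 and the adjusted p from limma with Benjamini-Hochberg from 7.18e-05 to 0.335. That p was 7.18e-05 in a limma fit of the 2 groups alone with Benjamini-Hochberg, 0.000119 without matNeu replicate 1, 0.0427 under median ratio scaling and 0.0478 without the 100 most abundant genes. From preNeu to matNeu Rrm2 fell by 7.99 (SE 0.44, adjusted p = 7.05e-08 by limma with Benjamini-Hochberg), the largest fall of a member at that step, and from GMP to matNeu by 7.06 (SE 0.44, adjusted p = 8.27e-08 by limma with Benjamini-Hochberg).

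Rrm1 stood at 416, 489.5 and 409 TPM in GMP, 346, 365 and 391 TPM in preNeu and 7.14, 10.2 and 7.39 TPM in matNeu. The preNeu levels lay just below GMP, without overlap. The change of -0.25 had no call and was 0.18 under median ratio scaling and 0.17 without the 100 most abundant genes, and from GMP to matNeu Rrm1 fell by 5.58 (SE 0.15, adjusted p = 3.17e-10 by limma with Benjamini-Hochberg). Tyms stood at 193, 166 and 195.4 TPM in GMP, 175, 156 and 117 TPM in preNeu and 2.65, 2.03 and 2.47 TPM in matNeu. GMP and preNeu overlapped, and matNeu was far below both. Tyms fell by 5.78 between GMP and matNeu (SE 0.18, adjusted p = 6.58e-10 by limma with Benjamini-Hochberg), and its first change of -0.32, without a call, was 0.11 and 0.095 under the 2 scalings. Tk1 averaged 175, 154 and 2.88 TPM at the 3 stages, with a first change of -0.19 that was 0.24 and 0.23 under them, and Dut averaged 189, 71.6 and 0.688 TPM.

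**Figure D2:**
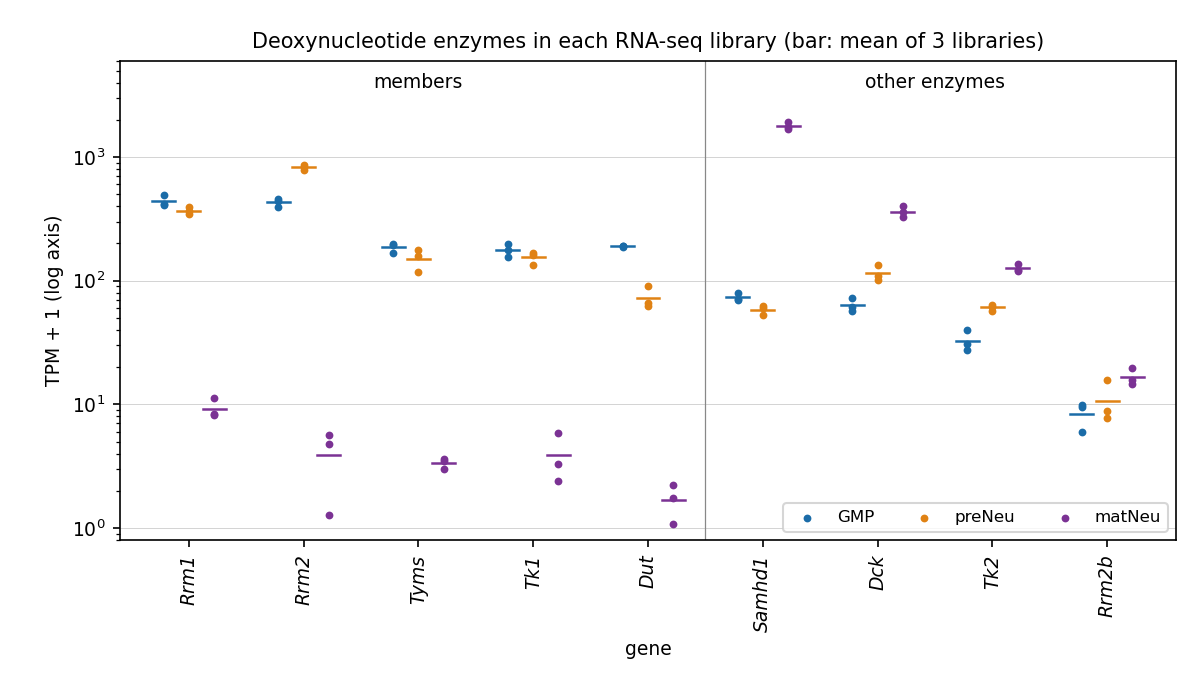
Levels of enzymes of deoxynucleotide supply as TPM + 1 on a log axis, with 1 point per RNA-seq library of GMP, preNeu and matNeu and a bar for the mean of 3 libraries. The 5 members drop to 10.2 TPM or lower in matNeu, while Samhd1, Dck, Tk2 and Rrm2b have their highest mean there. These 4 were drawn because they were called higher in matNeu than in GMP. Of the 10 other enzymes listed, 5 were lower and are not drawn.

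Brca1 acts in repair by homologous recombination and Msh6 in mismatch repair. Brca1 stood at 24.9, 30.7 and 31.6 TPM in GMP, 18.9, 20.5 and 24.1 TPM in preNeu and 0.0220, 0.149 and 0.0581 TPM in matNeu. Msh6 stood at 79.6, 74.2 and 68.0 TPM in GMP, 27.0, 22.5 and 36.0 TPM in preNeu and 2.99, 3.35 and 3.05 TPM in matNeu. Populations of both genes were apart, with Brca1 at 72.9% of its GMP mean in preNeu and Msh6 at 38.5%. Msh6 fell by 1.37 at the first step (SE 0.20, adjusted p = 0.000179 by limma with Benjamini-Hochberg). Brca1 had no call there (adjusted p = 0.106 by limma with Benjamini-Hochberg, range 0.0494 to 0.934 over the alternatives, lowest without a trend in the variance). Between GMP and matNeu, Brca1 fell by 4.80 (SE 0.22, adjusted p = 7.83e-09 by limma with Benjamini-Hochberg) and Msh6 by 4.18 (SE 0.20, adjusted p = 1.16e-08 by limma with Benjamini-Hochberg). Medians of the pair relative to all genes were -0.38, -3.27 and -3.57.

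Other genes of the same processes were read from 11 lists with 167 genes, none of them members. The same limma fit, whose shares over all genes tested are given above, called 89 lower and 22 higher in preNeu than in GMP, 135 lower and 9 higher in matNeu than in preNeu, and 146 lower and 8 higher in matNeu than in GMP. Of 39 other replication factors, 18 were lower and 4 higher in preNeu, and 36 lower and 0 higher in matNeu than in GMP. The 4 higher in preNeu were Dbf4, Rnaseh2c, Top2a and Asf1b. All 17 genes of de novo purine and pyrimidine synthesis were lower in preNeu and in matNeu than in GMP. Their preNeu median was 18.8% of the GMP level, against 52.4% for the members and 60.5% for genes with at least 1 TPM in GMP. All 7 mismatch repair genes were lower at both steps.

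Of 17 homologous recombination genes, 8 were lower and 2 higher in preNeu, and 16 lower and 0 higher in matNeu than in GMP. For 13 Fanconi anaemia genes the counts were 3 and 1 in preNeu and 12 and 1 in matNeu, and for 10 replication checkpoint genes 6 and 2, then 10 and 0. Of all genes tested, 44.3% were lower and 14.7% higher in preNeu than in GMP, and 54.1% and 22.8% in matNeu. Of 13 nucleotide excision repair genes, 10 were lower in matNeu than in GMP and 1 was under 5% of its GMP mean, while of 12 base excision repair genes 10 were lower and 4 under 5%, and of 8 end joining genes 5 were lower, 1 was higher and 2 were under 5%. Under 5% were also 13 of 17 purine and pyrimidine synthesis genes, 24 of 39 other replication factors, 10 of 17 homologous recombination, 4 of 7 mismatch repair, 7 of 13 Fanconi anaemia, 4 of 10 deoxynucleotide, 8 of 21 E2F, RB and cyclin and 2 of 10 replication checkpoint genes, beside 29 of the 38 members. Of the 11909 genes with a mean of at least 1 TPM in GMP, 17.7% were under 5%. These shares were not tested against each other.

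The largest falls in these lists between GMP and matNeu were those of Paics, for an enzyme of purine synthesis, Apex1, for the nuclease of abasic sites, and Tipin, for a fork protection factor. Paics stood at 698, 704 and 637 TPM in GMP, 107, 122 and 146 TPM in preNeu and 1.47, 4.73 and 2.15 TPM in matNeu. Apex1 stood at 380.3, 326 and 357 TPM in GMP, 20.8, 15.8 and 14.96 TPM in preNeu and 1.07, 1.51 and 0.736 TPM in matNeu. Tipin stood at 393, 311 and 392 TPM in GMP, 248, 247 and 203 TPM in preNeu and 1.08, 0.987 and 1.73 TPM in matNeu. No populations overlapped, and the preNeu mean was 18.4% of GMP for Paics, 4.85% for Apex1 and 63.7% for Tipin. Log2 changes between GMP and matNeu were -7.58 for Paics, -7.41 for Apex1 and -7.34 for Tipin, with adjusted p from limma with Benjamini-Hochberg of 1.37e-09, 3.24e-10 and 1.73e-10. The first-step call of Tipin was lost under both scalings (-0.22 and -0.23).

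The 8 genes of these lists called higher in matNeu than in GMP were Samhd1, E2f2, Dck, Tk2, Dclre1c, Rrm2b, Fanca and Lin54, and 4 of them act on deoxynucleotides. Samhd1, for the enzyme that breaks deoxynucleoside triphosphates down, stood at 78.5, 68.9 and 70.2 TPM in GMP, 52.1, 58.8 and 61.2 TPM in preNeu and 1691, 1737 and 1910.0 TPM in matNeu. Dck, for deoxycytidine kinase of the salvage pathway, stood at 55.7, 60.3 and 70.8 TPM in GMP, 100.3, 109 and 133 TPM in preNeu and 326, 358 and 399 TPM in matNeu. Every matNeu library of both genes was above every other library. Samhd1 rose by 4.60 (SE 0.11, adjusted p = 2.18e-10 by limma with Benjamini-Hochberg) and Dck by 2.52 (SE 0.15, adjusted p = 5.3e-08 by limma with Benjamini-Hochberg). Tk2, for the mitochondrial thymidine kinase, stood at 38.8, 26.5 and 30.0 TPM in GMP, 56.1, 62.7 and 60.7 TPM in preNeu and 135, 121 and 118 TPM in matNeu. Rrm2b, for the other small subunit of ribonucleotide reductase, stood at 4.96, 8.81 and 8.49 TPM in GMP, 6.77, 7.78 and 14.6 TPM in preNeu and 13.6, 14.6 and 18.5 TPM in matNeu. Tk2 was higher at each stage, while Rrm2b overlapped between preNeu and its neighbours. Tk2 rose by 1.96 (SE 0.16, adjusted p = 6.25e-07 by limma with Benjamini-Hochberg). Rrm2b rose by 1.00 (SE 0.31, adjusted p = 0.0131 by limma with Benjamini-Hochberg), a call lost without GMP replicate 1 (0.0527, range 0.000277 to 0.0527). Between preNeu and matNeu, Rrm2b had a call without preNeu replicate 3 (adjusted p = 0.0147 by limma with Benjamini-Hochberg) and under median ratio scaling (0.00827, range 0.00827 to 0.24). The first change of Samhd1, -0.33, was 0.088 and 0.077 under the 2 scalings, and its call was lost without GMP replicate 1 (adjusted p = 0.0949 by limma with Benjamini-Hochberg) or preNeu replicate 1 (0.0841), without a variance trend (0.0868) and in a fit of the 2 groups alone (0.0533), in a range of 0.0236 to 0.55.

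Of 21 genes for E2F factors, RB proteins and cyclins of the G1 to S transition, 3 were lower and 9 higher in preNeu than in GMP (44.3% and 14.7% of all genes tested), and 18 lower and 2 higher in matNeu than in GMP (54.1% and 22.8%). E2f2 stood at 4.11, 4.10 and 6.16 TPM in GMP, 60.9, 77.9 and 63.3 TPM in preNeu and 73.3, 86.5 and 77.8 TPM in matNeu. It was low in GMP and high in both later stages, which overlapped. E2f2 rose by 3.81 between GMP and matNeu (SE 0.19, adjusted p = 1.4e-08 by limma with Benjamini-Hochberg). From preNeu to matNeu it had a call under median ratio scaling alone (0.64, adjusted p = 0.0105 by limma with Benjamini-Hochberg, range 0.0105 to 0.839). Ccna2, for cyclin A2, averaged 235, 519 and 1.72 TPM and E2f8, for a repressor of the E2F family, 43.4, 89.1 and 2.37 TPM. Both were higher in preNeu than in GMP, at the step where 26 members were lower. Lin54, for a subunit of the DREAM complex, averaged 12.2, 29.2 and 23.2 TPM, Dclre1c, for the end joining nuclease Artemis, 17.5, 24.7 and 61.4 TPM and Fanca 59.3, 119.8 and 122 TPM. Rises between GMP and matNeu were 0.96 for Lin54, 1.74 for Dclre1c and 0.97 for Fanca on the log2 scale, with adjusted p from limma with Benjamini-Hochberg of 0.0136, 3.31e-06 and 0.00472. Changes of Lin54 and Fanca from preNeu to matNeu, -0.33 and -0.026, were 0.056 and 0.37 under median ratio scaling, and that of Fanca was 0.10 without preNeu replicate 2 and 0.29 without matNeu replicate 3. The first-step call of Dclre1c (adjusted p = 0.0364 by limma with Benjamini-Hochberg) was lost without GMP replicates 1 (0.0618), 2 (0.0909) or 3 (0.0814) or preNeu replicates 2 (0.0541) or 3 (0.115), in a range of 0.000794 to 0.115.

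CHD4 is the chromatin remodelling ATPase of the NuRD complex, and its lists in wild type and Gfi1-/- GMP show where it was found with and without GFI1. Few starts of member genes carried a CHD4 summit in either list, and the counting intervals below include the shares of all protein-coding genes. The deposited lists hold 35790 and 7316 peaks, from 1 library each, so no test was run. The paper counts far fewer CHD4 peaks in wild type GMP, so the list used here is not its peak set. The Gfi1-/- list is shorter as a whole. Whether a peak absent from it was lost through the absence of GFI1 was not tested. A promoter was taken from 2 kb before to 500 bp after the gene start in the mouse build GRCm38 (mm10). A CHD4 summit lay in the promoter of 1 of the 38 members in wild type GMP (2.63%, 95% Wilson interval 0.466 to 13.5%), against 8.08% of all protein-coding genes and 11.9% of those with at least 1 TPM in GMP. In Gfi1-/- GMP it lay in 0 of 38 by MACS2 peaks (interval up to 9.18%), against 1.57% of all protein-coding genes. The intervals cover counting error over genes only.

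The member with a CHD4 summit was Tyms. The peak lay at chr5:30073572-30073786, with its summit 35 bases before the gene start, a fold enrichment of 4.30 and a -log10 q of 4.54. No peak of the Gfi1-/- list overlapped it, and it is absent at a -log10 q of at least 5, where 7.70% of all protein-coding genes kept a summit. Counting the start of any annotated transcript gave 3 members (7.89%, against 11.9% of all protein-coding genes), with Lig1 and Mcm5 added, and counting any overlap of a peak with the promoter gave 2 (5.26%, against 8.58%). In a wider window, from 10 kb before a gene to its end, 10 of the 38 members held a wild type summit (26.3%, against 28.5% of all protein-coding genes and 38.3% of those expressed in GMP). In the Gfi1-/- list 1 member did (2.63%, against 9.06% and 12.6%). The strongest wild type peak was in Gins1, at chr2:150921557-150922085, with a fold enrichment of 16.98. Mcm4 was the member with a peak in both lists, with summits at -5440 and -5437 bp from the gene start and fold enrichments of 6.09 in wild type and 5.66 in Gfi1-/- GMP. The median distance from a member's start to the nearest wild type summit was 44.7 kb, against 61.2 kb for all protein-coding genes and 35.5 kb for those expressed in GMP.

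**Figure D3:**
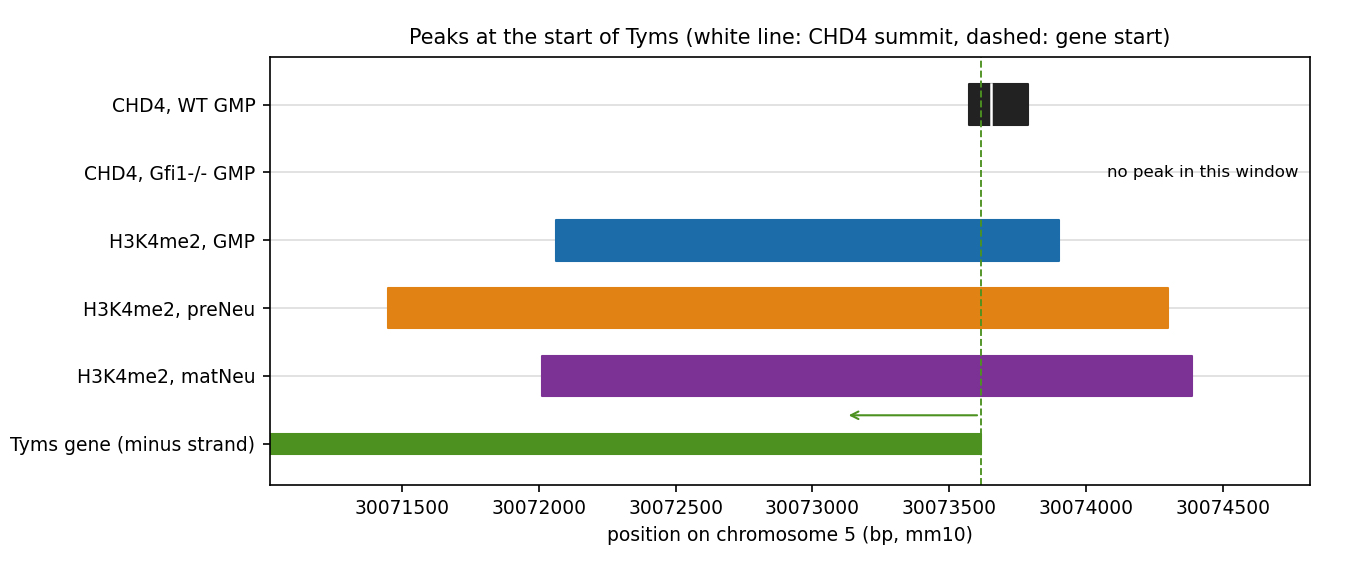
Deposited peaks around the start of Tyms, as bars along the chromosome in bp (GRCm38), for CHD4 in GMP and H3K4me2 in GMP, preNeu and matNeu. The CHD4 summit, a white line, lies 35 bases before the gene start, the dashed line, and H3K4me2 peaks of 1839, 2853 and 2377 bp span the region in the 3 populations.

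H3K4me2 marks promoters and enhancers. Nearly every member promoter met a peak of it at all 3 stages, also in matNeu, where the level of 29 of the 38 was under 5% of GMP. Its peaks overlapped the promoter of 36 of the 38 members in GMP (59.4% of all protein-coding genes), 37 in preNeu (59.3%) and 36 in matNeu (56.9%). Among protein-coding genes with at least 1 TPM in GMP the shares were 88.9%, 91.1% and 89.9%, against 94.7%, 97.4% and 94.7% of the members. The peak covered the gene start itself at 28 members in GMP (73.7%, against 75.8% of expressed genes), 36 in preNeu (94.7%, against 88.3%) and 36 in matNeu (94.7%, against 86.4%). At a -log10 q of at least 5 the counts were 8 in GMP (21.1%, against 37.5% of expressed genes), 37 in preNeu (97.4%, against 88.7%) and 36 in matNeu (94.7%, against 86.8%), from lists whose median -log10 q was 2.41, 6.96 and 5.06. Rfc2 lacked a peak at all stages and Lig1 in GMP and matNeu. Both had 1 in each population when the start of any annotated transcript was counted. The median width at member promoters was 2725.5 bp in GMP, 3833 bp in preNeu and 2390.0 bp in matNeu, and the median fold enrichment 3.38, 10.4 and 9.01. At promoters of genes expressed in GMP the median fold enrichment was near that of the members, 3.58, 10.5 and 8.55, and over all peaks of the 3 lists it was 2.89, 4.55 and 3.78, so the lists differ as wholes. The paper reports the other direction, with less H3K4me2 coverage in both later stages than in GMP. That was read coverage after scaling, at promoters with GFI1, CHD4 or both, so the measure and the set of promoters differ from those used here.

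From preNeu to matNeu the peak was narrower at 34 of the 36 members with both, with a median ratio of 0.650, and at 83.4% of genes expressed in GMP, with a ratio of 0.810. From GMP to preNeu it was wider at 32 of 36, with a median ratio of 1.53, and at 86.9% of expressed genes, with a ratio of 1.41. Widths in GMP, preNeu and matNeu were 2653, 7876 and 1176 bp at Mcm2, 4014, 8627 and 2528 bp at Pcna and 2695, 4605 and 1524 bp at Rrm1. Between GMP and matNeu the peak was wider at 16 and narrower at 20 of 36 members, with a median ratio of 0.946. Among expressed genes 63.3% were wider there, with a ratio of 1.12. Cdc45 and Gins1 were the 2 members with a wider peak in matNeu than in preNeu. The fold enrichment was lower in matNeu than in preNeu at 29 of 36 members (80.6%) and at 87.6% of expressed genes, with median ratios of 0.848 and 0.809. With 1 library a population, these differences were not tested.

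**Figure D4:**
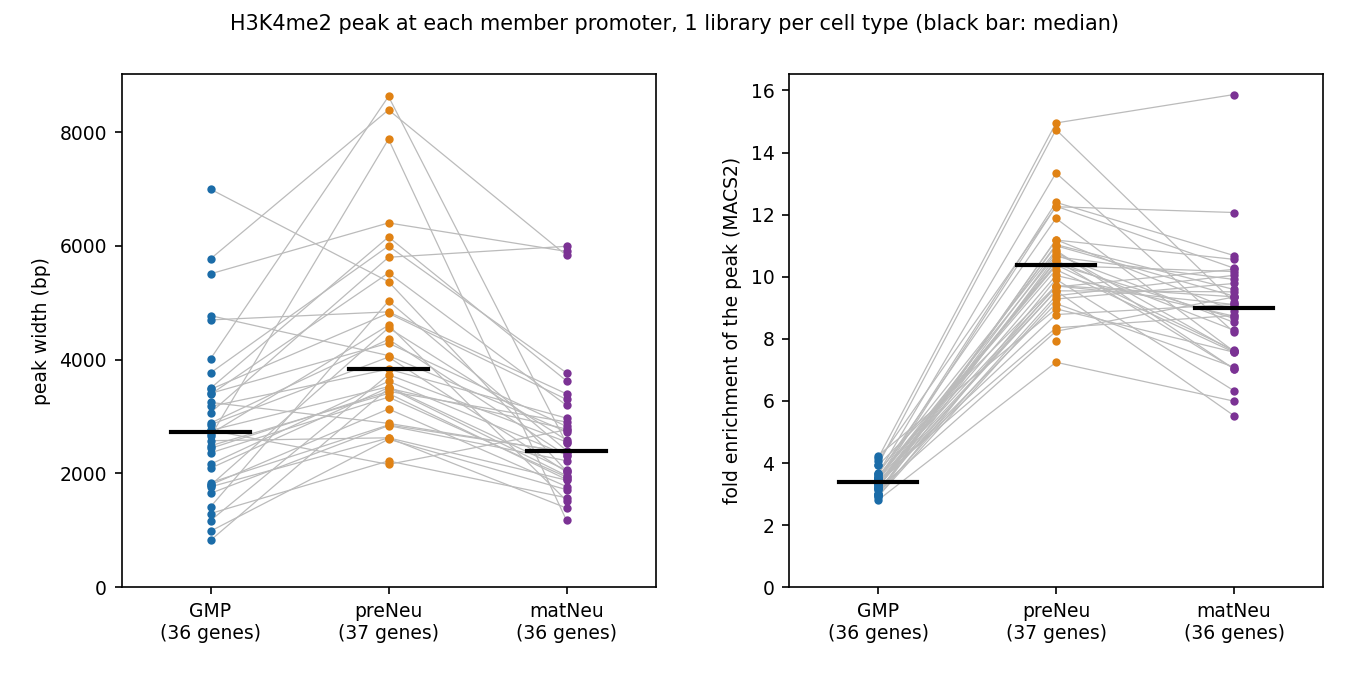
Width in bp and fold enrichment of the H3K4me2 peak at each member promoter in GMP, preNeu and matNeu, with 1 point per member and library and a black bar for the median. Median widths are 2725.5, 3833 and 2390.0 bp, and the fold enrichment is higher in preNeu and matNeu than in GMP for all 36 members with a peak in both, as for 9856 of 9974 and 9677 of 9879 genes expressed in GMP.

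The ATAC list, named for preNeu and for matNeu alike, had a peak at 28 of the 38 member promoters (73.7%, Wilson interval 58.0 to 85.0%), against 35.8% of all protein-coding genes and 64.1% of those expressed in GMP. The 10 members without a peak were Gins3, Lig1, Mcm10, Mcm2, Pola1, Prim1, Rfc1, Rfc2, Tk1 and Tyms. At a -log10 q of at least 5 the count was 13 members (34.2%, against 21.4% of all and 39.3% of expressed genes). With the start of any annotated transcript it was 30 (78.9%, against 39.4% and 70.4%), with Lig1 and Rfc2 added. Which population the list came from cannot be told.

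Promoter sequences from RefSeq (GRCm38.p6), 250 bases before to 50 after the RefSeq start, matched 32 of the 38 members. These starts lay from 224 bp before (Fen1) to 539 bp after (Mcm7) the GENCODE gene starts used for the peaks, and at the same base for 8 members. Gins1, Gins2, Gmnn, Mcm4, Pole and Rfc2 had no entry. The 4 E2F words TTTCCCGC, TTTCGCGC, TTTGCCGC and TTTGGCGC, read on both strands, occurred in 12 of 32 members (37.5%), against 2.91% of the 16400 promoters of protein-coding genes and 4.26% of the 8914 with at least 1 TPM in GMP. They were Cdc6, Cdt1, Gins3, Mcm3, Mcm5, Mcm6, Mcm7, Msh6, Orc1, Pola1, Pold1 and Rfc3. CCAAT occurred on either strand in 22 members (68.8%), against 38.8% and 39.7%. TTTGAA, the core of the cell cycle homology region, occurred in 4 (12.5%), against 15.6% and 12.2%. The median GC content was 57.5% for the members, 57.0% for all and 60.7% for expressed genes. Matches describe the letters in this window and were not tested for binding.

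Sequences are printed for Mcm3, the member with the largest change, for Mcm6 and Mcm7, ring subunits with 3 and 2 E2F words, for Tyms, whose start carried the CHD4 summit, and for Rrm2, which was highest in preNeu. All run 5′ to 3′ along the gene from RefSeq GRCm38.p6, in lower case, with E2F words in capitals. They are Mcm3 chr1:20820263-20820562 (minus strand), Mcm6 chr1:128359656-128359955 (minus strand), Mcm7 chr5:138171834-138172133 (minus strand), Tyms chr5:30073576-30073875 (minus strand) and Rrm2 chr12:24708004-24708303 (plus strand). The Mcm7 window begins 289 bp after its GENCODE start and so lies inside the gene. Windows of Cdc6 and Dut, not printed, also begin inside the gene. Their RefSeq starts lay 350 and 325 bp after the GENCODE starts. Tyms and Rrm2 held no E2F word in this window.
Mcm3: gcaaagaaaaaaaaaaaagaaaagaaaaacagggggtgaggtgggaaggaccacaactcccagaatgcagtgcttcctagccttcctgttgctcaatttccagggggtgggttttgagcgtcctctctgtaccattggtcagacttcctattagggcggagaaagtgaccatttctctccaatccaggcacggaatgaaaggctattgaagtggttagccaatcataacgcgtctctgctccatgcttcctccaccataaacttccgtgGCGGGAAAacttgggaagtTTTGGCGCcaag
Mcm6: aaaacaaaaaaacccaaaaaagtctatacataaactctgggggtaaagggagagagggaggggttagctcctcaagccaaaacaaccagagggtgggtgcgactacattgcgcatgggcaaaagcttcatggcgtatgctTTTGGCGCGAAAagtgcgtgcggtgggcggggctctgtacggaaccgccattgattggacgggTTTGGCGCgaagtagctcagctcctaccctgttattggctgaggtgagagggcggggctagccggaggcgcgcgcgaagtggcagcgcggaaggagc
Mcm7: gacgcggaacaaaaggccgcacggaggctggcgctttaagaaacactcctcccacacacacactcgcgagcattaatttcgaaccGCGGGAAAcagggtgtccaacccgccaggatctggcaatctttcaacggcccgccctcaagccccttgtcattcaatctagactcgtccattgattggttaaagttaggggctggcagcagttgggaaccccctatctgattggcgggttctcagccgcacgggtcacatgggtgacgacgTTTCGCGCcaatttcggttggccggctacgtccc
Tyms: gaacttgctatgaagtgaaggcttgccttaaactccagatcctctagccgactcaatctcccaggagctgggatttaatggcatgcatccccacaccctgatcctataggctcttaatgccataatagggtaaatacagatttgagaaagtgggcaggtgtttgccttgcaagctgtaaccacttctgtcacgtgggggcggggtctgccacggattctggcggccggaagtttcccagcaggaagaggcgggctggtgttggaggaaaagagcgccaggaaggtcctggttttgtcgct
Rrm2: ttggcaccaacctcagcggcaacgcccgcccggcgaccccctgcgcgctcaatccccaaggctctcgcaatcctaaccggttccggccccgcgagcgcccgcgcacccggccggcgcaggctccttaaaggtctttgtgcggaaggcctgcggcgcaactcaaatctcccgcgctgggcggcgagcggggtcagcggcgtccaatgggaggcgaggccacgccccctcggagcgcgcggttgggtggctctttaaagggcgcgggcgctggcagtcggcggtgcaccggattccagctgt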

How the data were processed

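Expression values are TPM as deposited, for 34896 genes. The labels list kallisto 0.44.0 beside text on Tophat, HTSeq and DESeq for the RNA, so the step that made them is not stated. The authors' peak lists hold fold enrichment and -log10 p and -log10 q values, made before deposition by MACS2 2.1.0 after Trimmomatic 0.36 and BWA 0.7.17, per the labels. Lists for H3K4me3 and GFI1 were not used, because some of their peaks lie past chromosome ends of mm10. From the TPM, limma 3.58.1 (R 4.3.3) was run here on log2(TPM + 1) with a variance trend and Benjamini-Hochberg adjustment over 13061 genes. All 9 RNA libraries were in 1 fit. Peaks and promoter sequences were read with Python 3.11.15, pandas 2.3.3, numpy 2.4.6 and scipy 1.17.1, with gene starts from GENCODE M21, and drawn with matplotlib 3.10.9. Members and lists were chosen with earlier results of these data known. Full values are given for the members with the largest and smallest change between GMP and matNeu in each role group. They are also given for any member with a CHD4 summit at the promoter and for the pathway genes with the 3 largest falls. Pathway genes called higher in matNeu have full values too, except Lin54, Dclre1c and Fanca, which have means. Other genes with values were chosen after their values were seen.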

Additional observations from a re-analysis of the deposited data

How the results depend on the processing

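Members lower in preNeu than in GMP numbered 26, and 17 under median ratio scaling, 17 rescaled without the 100 most abundant genes and 17 with a minimum change of 1. Of all 13061 genes, 5781 were lower at that step, and 3999, 4066 and 4195 under those settings. Members higher there numbered 0, and 2 and 2 under the 2 scalings, 1 in a fit of the 2 compared groups alone and 1 without matNeu replicate 1 (0 without GMP replicate 1). Members higher in matNeu than in preNeu went from 0 to 1 under median ratio scaling. Leaving out 1 library gave 22 to 28 lower members in preNeu, 36 at the later step and 38 between GMP and matNeu. CHD4 at promoters in wild type GMP went from 1 to 0 at a -log10 q of at least 5, 3 at any transcript start and 2 by overlap, while at that q H3K4me2 in GMP went from 36 to 8 and ATAC from 28 to 13. The cause was not tested.

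Log2 changes between GMP and preNeu that were negative and became positive under median ratio scaling and without the 100 most abundant genes were those of Gmnn 0.033 and 0.021, Gins3 0.017 and 0.0049, Rpa3 0.36 and 0.35, Rrm1 0.18 and 0.17, Tyms 0.11 and 0.095, Tk1 0.24 and 0.23, Samhd1 0.088 and 0.077. Between preNeu and matNeu, median ratio scaling gave 0.17 for Orc1, 0.056 for Lin54 and 0.37 for Fanca, and rescaling without the 100 genes gave -0.19 for Rfc2. Leaving out 1 library gave ranges that cross 0 for Cdc45 -0.0081 to 0.15 and Rpa3 -0.36 to 0.16 between GMP and preNeu, and for Orc1 -0.87 to 0.48, Rfc2 -0.17 to 0.14 and Fanca -0.24 to 0.29 between preNeu and matNeu. The cause was not tested.

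The groups share only replicate numbers. With the number as a replicate block, limma called 25 members lower in preNeu than in GMP, 36 lower in matNeu than in preNeu and 38 lower in matNeu than in GMP. Among the genes given with values, the block changed the calls of Lig1 between GMP and preNeu (adjusted p = 0.0506 by limma with Benjamini-Hochberg, not called) and of Rrm2b between preNeu and matNeu (0.04, called). After removal of group means, same-numbered libraries correlated at -0.039 to 0.12, and not every library correlated best with its own number, a hint from the data and not the design.

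Each group holds 3 RNA libraries, and each peak list comes from 1 library. TPM is relative to the rest of a library, so a shift of all RNA is not seen. Log2 changes of genes near 0 TPM in matNeu depend on the pseudocount.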
